A study of Mus musculus with 5 samples.

Results

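The collagen genes were taken as every locus of the deposited gene table with a name made of Col, a type number, the letter a and a chain number. The rule found 43 of 24768 loci, each with a single collagen name, and no measured value entered it. Levels were measured by RNA sequencing in normal uvea, the pigmented layer of iris, ciliary body and choroid, and in eye tumors labelled as mutant for the Hippo pathway kinases Lats1 and Lats2. The wild-type group held 2 libraries from the uvea of adult wild-type animals. The tumor group held 3 libraries from eye tumors of adult mice with the genotype AAV5-Cre;Lats1/2 fl/fl, in which Cre recombinase delivered by an adeno-associated virus removes floxed alleles of both kinases. The labels do not give the promoter that drives Cre, whether the wild-type mice received a virus, or a batch. Nor do they state that each library is a different animal, and the p-values therefore cover the spread among these 5 samples alone, which may be technical. Tumor tissue was thus compared with normal tissue and not with a tumor of another genotype.

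Collagens are trimers of alpha chains wound into a triple helix, in which glycine recurs at a fixed interval, as Gly-X-Y triplets. Fibrillar collagens (types I, II, III, V, XI, XXIV and XXVII) assemble into the banded fibrils of connective tissue, FACIT collagens attach to the surface of fibrils, and type IV forms the sheet of basement membranes. Type VI forms beaded microfibrils, types VIII and X form short-chain networks, and the transmembrane collagens span the cell surface. In the eye, type I fibrils build sclera and cornea, types II, IX and XI build the vitreous gel, and type VIII lies in Descemet's membrane of the cornea and in blood vessels.

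The repeat is visible in the coding exons. Of 1991 coding exons of the 43 genes, 469 (23.6%) were exactly 54 bases long, the length of 6 Gly-X-Y triplets, against 1345 of 200518 (0.671%) in all 22500 coding genes of GENCODE M21 (GRCm38, the assembly also named mm10). Such exons made up 305 of 649 (47.0%) in the fibrillar genes and 0 of 6 in the network genes. Exons of fibrillar, beaded, basement membrane and FACIT genes are printed with the glycine codon that opens each triplet in capitals. They show that genes of opposite direction in the tumors share this unit. The network genes have no exon of this length.
Col1a1 exon 8, chr11:94939904-94939957, plus strand: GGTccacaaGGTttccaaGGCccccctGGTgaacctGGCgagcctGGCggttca
Col3a1 exon 6, chr1:45325360-45325413, plus strand: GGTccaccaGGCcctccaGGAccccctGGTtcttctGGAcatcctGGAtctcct
Col5a2 exon 10, chr1:45422386-45422439, minus strand: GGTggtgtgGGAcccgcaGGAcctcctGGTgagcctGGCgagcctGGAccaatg
Col6a1 exon 9, chr10:76719623-76719676, minus strand: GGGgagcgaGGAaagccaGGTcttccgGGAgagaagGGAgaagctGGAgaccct
Col4a1 exon 7, chr8:11245211-11245264, minus strand: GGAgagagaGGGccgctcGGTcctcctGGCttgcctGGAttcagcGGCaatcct
Col9a3 exon 12, chr2:180605727-180605780, plus strand: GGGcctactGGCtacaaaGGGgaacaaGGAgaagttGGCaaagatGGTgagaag
Each of these exons holds 6 triplets, each opened by a glycine codon. Those of Col1a1 and Col5a2 hold a further glycine codon (ggt) in the X position, left in small letters. The longest unbroken run of triplets was 216 to 344 (median 338) in the fibrillar genes. It was 39 to 66 in the basement membrane genes, 37 to 87 in the beaded genes, 32 to 113 in the FACIT genes, 60 to 61 in the network genes and 40 to 56 in the transmembrane genes.

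Libraries held 12687703 to 14368272 estimated fragments. As a check of the labels, the level of Lats1 in FPKM (fragments scaled for transcript length and for depth) was 7.55 and 8.86 in wild type against 3.43, 3.90 and 2.94 in the tumors, and it fell (log2 fold change -1.21, adjusted p = 0.0115 by the edgeR quasi-likelihood test with Benjamini-Hochberg adjustment). Lats2 stood at 20.0 and 20.2 FPKM against 12.6, 17.0 and 14.3 and did not pass (log2 fold change -0.62, adjusted p = 0.0577). These are levels over the whole locus, and no value inside the floxed part was examined. Markers of normal eye tissue were lower, beside 15.4% of all 15241 tested loci that fell. Of melanocyte markers 7 of 8 fell, with a summed level of 6754 and 6526 FPKM in wild type and 10.6 to 79.2 in the tumors. So did 7 of 8 of the retinal pigment epithelium (16705 and 16556 against 226 to 248) and 6 of 10 of the retina (2686 and 2828 against 2.77 to 43.8). Most of the tumor sum of the retinal pigment epithelium was the joined locus of Bloc1s1 and Rdh5. It stood at 228, 176 and 213 FPKM in tumor libraries 1, 2 and 3, and its reads cannot be assigned to either gene. The tumor libraries also differed among themselves. Tumor library 1 held 7253 FPKM of 8 skeletal muscle markers, against 404 to 592 in the other 4 libraries. Tumor library 2 held 1503 FPKM of 8 cornea markers, against 210 and 347 in tumor libraries 1 and 3 and 5141 and 5008 in wild type. Clu was the largest part of that sum in wild type (3532 and 3497 FPKM) and in tumor library 2 (728). The epithelial keratin Krt5 stood at 399.9, 5.98 and 20.8 FPKM in tumor libraries 2, 1 and 3 against 356 and 379 in wild type. The corneal keratin Krt12 stood at 18.3, 0.298 and 0.773 FPKM in the same order against 258 and 248.

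Collagen transcripts took up a larger share of the tumor libraries. They made up 0.726% and 0.764% of the fragments of named loci in wild type and 2.05%, 2.06% and 2.87% in tumor libraries 1, 2 and 3. Their summed level was 1586 ± 40.6 FPKM (SD, n = 2) in wild type and 4399 ± 1334 (SD, n = 3) in the tumors. All 43 loci passed the filter on low counts, and 16 rose, 4 fell and 23 did not pass the test at an adjusted p of 0.05. Over all 15241 tested loci, 18.7% rose and 15.4% fell. The median log2 fold change was 1.25 over the collagens and 0.05 over all tested loci. By FPKM alone, every tumor library lay above both wild-type libraries for 21 collagens (33.7% of all tested loci) and below both for 10 (35.9%), and the groups overlapped for 12. In bulk tissue, fewer cells of a type and less RNA per cell cannot be told apart.

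The number of falls varied more with the processing than the number of rises. Beside each count stands the share of all tested loci that the same setting called. DESeq2 called 21 rises (24.2%) and 9 falls (21.5%). With library size alone as the scaling there were 16 rises (20.2%) and 2 falls (13.4%), with RLE factors 16 (17.8%) and 4 (16.1%), and with no filter on low counts 16 (13.5%) and 3 (11.6%). By limma there were 15 rises (17.3%) and 8 falls (20.3%) on log2(FPKM + 1) and 15 (18.2%) and 7 (18.5%) on log2(FPKM + 0.1). Rises and falls numbered 15 (15.9%) and 2 (13.7%) without tumor library 1, 19 (20.1%) and 9 (20.7%) without tumor library 2, and 20 (18.7%) and 3 (16.6%) without tumor library 3. Without either wild-type library edgeR called 0 loci of any kind. At an unadjusted p under 0.05 it then found 4085 and 3996 loci, among them 14 collagens higher in either case and 3 and 2 lower. No other tool was run on those 4 libraries.

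**Figure D1:**
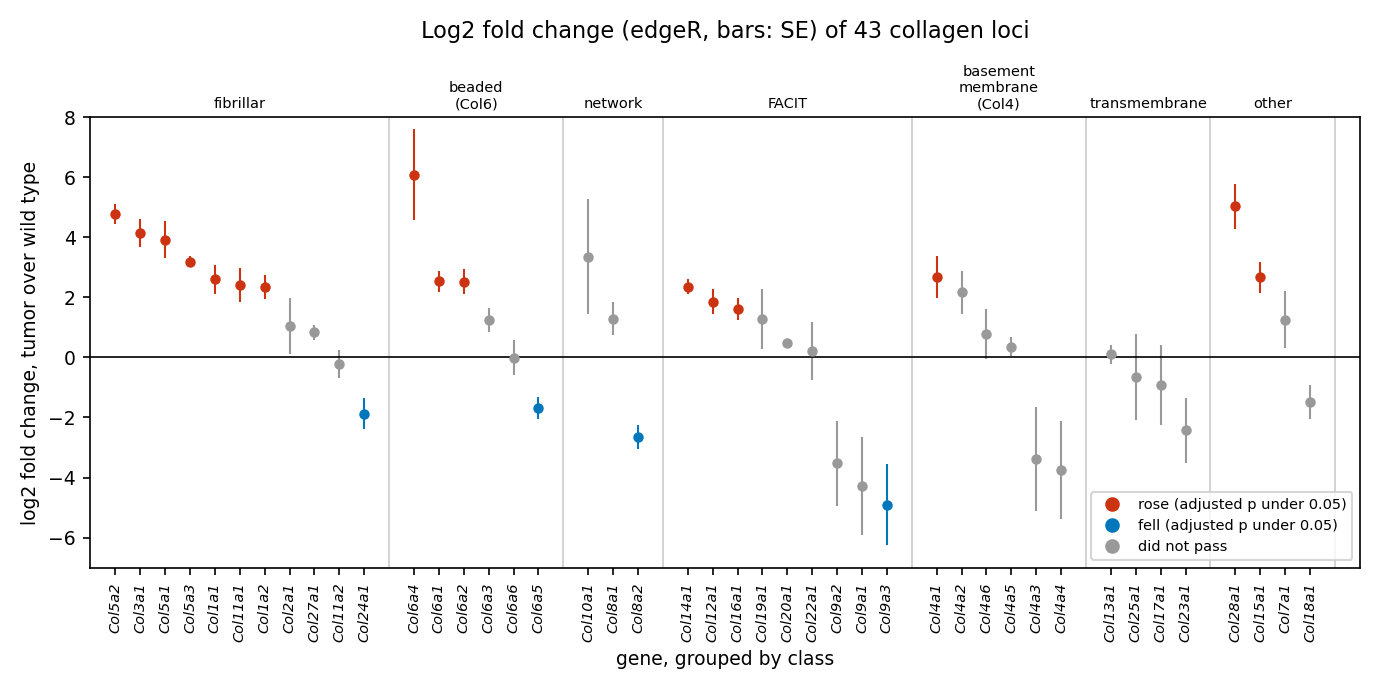
Log2 fold change of tumor over wild type (vertical axis) for each of the 43 collagen loci, grouped by class along the horizontal axis, with bars of 1 standard error and the color showing whether the locus rose, fell or did not pass. Fibrillar members lie mostly above 0, and the type IX chains and Col4a3 and Col4a4 lie below it with wide bars.

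The fibrillar genes took a larger share of the collagen pool in the tumors, and the network genes a smaller share, with summed levels that overlapped wild type. The fibrillar sum was 408 and 422 FPKM in wild type and 2529, 1985 and 4175 in tumor libraries 1, 2 and 3. The network sum was 493 and 526 FPKM against 410, 368 and 752. Fibrillar genes gave 26.2% and 26.1% of the summed collagen FPKM in wild type and 67.6%, 56.3% and 70.4% in tumor libraries 1, 2 and 3. The 3 network genes, which formed the largest class in wild type at 31.6% and 32.6%, gave 10.98%, 10.4% and 12.7%. FACIT genes went from 18.3% and 17.6% to 5.09%, 8.002% and 4.73%. Beaded genes stood at 4.56% and 4.58% against 9.24%, 7.29% and 8.78%. The basement membrane share was 5.71% and 5.87% in wild type and spread from 2.00% to 12.1% in the tumors, with the highest value in tumor library 2. These are shares per length, and no test was made on them.

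**Figure D2:**
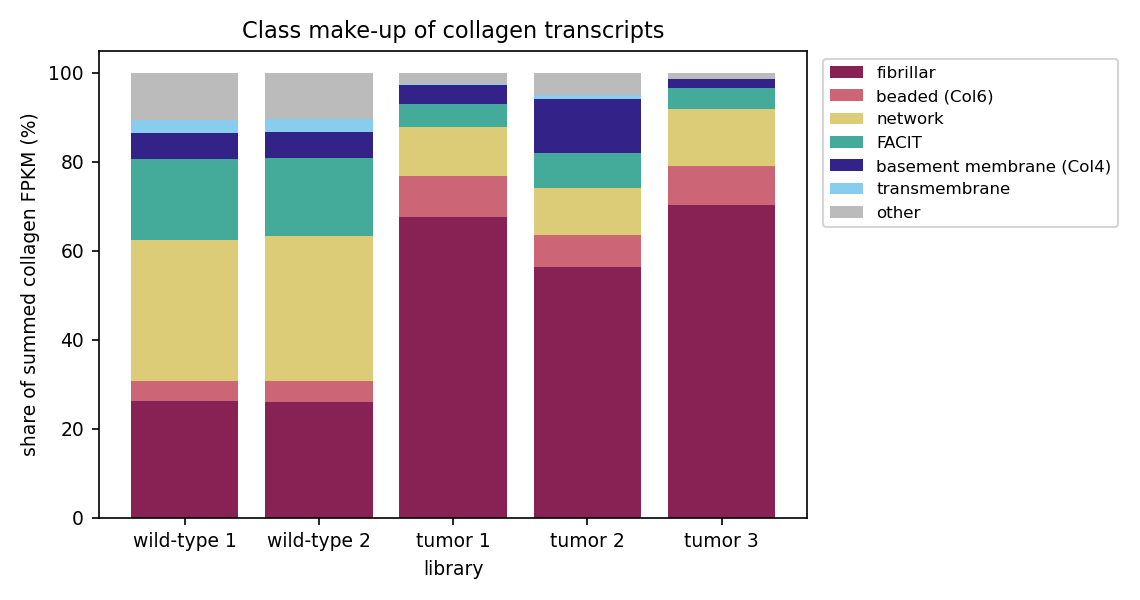
Stacked bars of the share of each collagen class in the summed collagen FPKM (percent, vertical axis) for each of the 5 libraries. Fibrillar chains take 26.1% to 26.2% in wild type and 56.3% to 70.4% in the tumors, and network chains 31.6% to 32.6% against 10.4% to 12.7%.

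Among the 11 fibrillar genes, 7 rose, 1 fell and 3 did not pass, with a median log2 fold change of 2.42. The type I chains, the main fibril protein of most connective tissue, were the most abundant collagens of the tumors. Col1a1 (chr11:94936224-94953042) stood at 157 and 155 FPKM in the wild-type libraries and at 755, 599 and 1419 in tumor libraries 1, 2 and 3. It rose 6.12-fold (log2 fold change 2.61, SE 0.48, adjusted p = 0.0191). Among named loci ordered by FPKM it ranked 606 and 581 in wild type and 166, 148 and 102 in the tumors. Col1a2, the partner chain, stood at 183 and 194 FPKM against 874, 623 and 1276 and rose 5.08-fold (log2 2.34, SE 0.41, adjusted p = 0.0169). For both chains the groups did not overlap, and tumor library 3 was the highest and tumor library 2 the lowest of the tumors.

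Types III and V join type I in mixed fibrils, and their 4 genes rose with fitted folds of 9.12 to 27.6, beside 5.08 and 6.12 for type I. Col3a1 (chr1:45311538-45349706) stood at 37.4 and 40.6 FPKM in the wild-type libraries and at 595, 447 and 965 in the tumors, a 17.7-fold rise (log2 4.15, SE 0.47, adjusted p = 0.00759). Its rank went from 2620 and 2333 to 191, 182 and 128. Col5a2 (chr1:45374321-45503282), the neighbour of Col3a1 on the opposite strand, stood at 7.27 and 8.53 FPKM against 167, 202 and 264 and rose 27.6-fold (log2 4.79, SE 0.34, adjusted p = 0.0039). Among the rises of collagens above 10 FPKM in a group, Col28a1 alone had a larger fitted fold. Col5a1, whose chain helps to start fibrils and to set their width, stood at 7.38 and 7.48 FPKM against 78.2, 65.6 and 174 (log2 3.92, SE 0.61, adjusted p = 0.0135). Col5a3 stood at 1.47 and 1.28 FPKM against 13.5, 11.8 and 11.05 (log2 3.19, SE 0.18, adjusted p = 0.00302) and was the member with the smallest adjusted p. The type V genes thus rose in all 3 tumor libraries without overlap, and the order of the tumors differed between Col5a3 (library 1 highest) and the other type V genes (library 3 highest).

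Type XI, a minor fibril component of cartilage and vitreous, was divided. Col11a1 stood at 6.71 and 7.93 FPKM in the wild-type libraries and at 27.9, 22.1 and 63.0 in the tumors and rose (log2 2.42, SE 0.56, adjusted p = 0.0314), whereas Col11a2 stayed between 0.402 and 0.988 FPKM in all libraries with overlapping groups. Col2a1, the main fibril chain of cartilage and vitreous, stood at 4.30 and 3.95 FPKM against 14.01, 9.06 and 1.36 and did not pass (adjusted p = 0.42). Without tumor library 3, the lowest, it passed with a log2 fold change of 1.53 (adjusted p = 0.021). Col27a1 stood at 1.66 and 1.61 FPKM against 2.84, 3.35 and 2.25 (adjusted p = 0.0518) and likewise passed without tumor library 3 (adjusted p = 0.025). Col24a1 was the fibrillar gene that fell, from 73 and 68 fragments to 28, 23 and 9 (log2 -1.87, SE 0.52, adjusted p = 0.048). That call was lost without tumor library 1 (adjusted p = 0.059), without tumor library 2 (0.067), with library size alone (0.066) and with no filter on low counts (0.057).

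**Figure D3:**
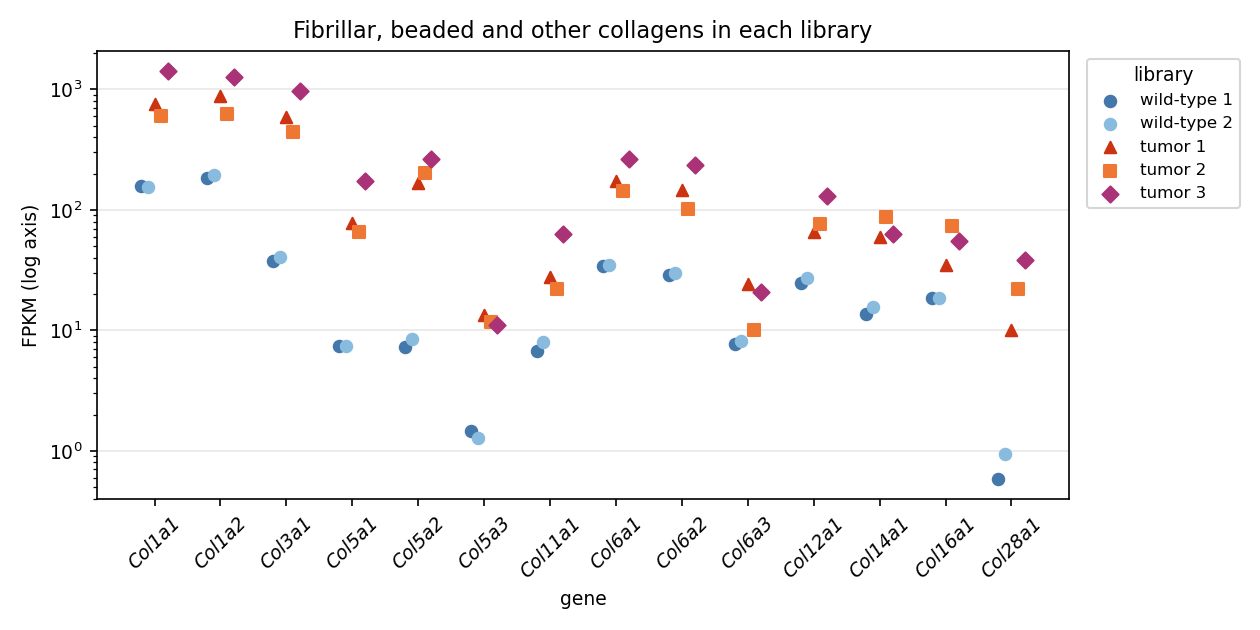
FPKM (log vertical axis) of fibrillar, beaded, FACIT and Col28a1 collagens (horizontal axis), with a point for each of the 5 libraries. For Col1a1, Col1a2, Col3a1 and the type V genes all 3 tumor points lie above both wild-type points.

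The beaded type VI genes encode microfibrils that lie around cells, and 3 of 6 rose and 1 fell. Col6a1 stood at 34.2 and 35.2 FPKM in the wild-type libraries and at 173, 144 and 264 in the tumors (log2 2.53, SE 0.34, adjusted p = 0.0101). Col6a2 stood at 28.5 and 29.8 FPKM against 147, 102 and 235 (log2 2.52, SE 0.42, adjusted p = 0.0155). Both had the same order of tumors, with library 3 highest and library 2 lowest. Col6a3, which supplies the remaining chain of the usual trimer, stood lower, at 7.69 and 8.15 FPKM against 24.2, 10.1 and 20.7. It did not pass over all 5 libraries (log2 1.25, SE 0.41, adjusted p = 0.0709) and passed without tumor library 2, the lowest (log2 1.51, adjusted p = 0.0091), and by DESeq2 (adjusted p = 0.018). Col6a5 fell from 74 and 81 fragments to 33, 23 and 19 (log2 -1.69, SE 0.36, adjusted p = 0.0259). Col6a4 rose from 1 and 0 fragments to 95, 15 and 22 (adjusted p = 0.037), and its fold change is uncertain since wild type held almost no fragments. By limma on log2(FPKM + 1) it did not pass (adjusted p = 0.20). Col6a6 stayed at or below 0.139 FPKM in every library.

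The FACIT genes, 9 in number, divided by type. Col12a1 and Col14a1, whose products bind the surface of type I fibrils, rose, as did Col16a1. Col14a1 stood at 13.8 and 15.7 FPKM in the wild-type libraries and at 59.4, 87.1 and 63.5 in the tumors (log2 2.36, SE 0.25, adjusted p = 0.00678). Col12a1 stood at 24.8 and 27.0 FPKM against 64.9, 75.7 and 130 (log2 1.86, SE 0.41, adjusted p = 0.0279). Col16a1 stood at 18.6 and 18.5 FPKM against 34.7, 74.0 and 54.8 (log2 1.61, SE 0.36, adjusted p = 0.0296), a call lost without tumor library 3 (adjusted p = 0.051). The groups did not overlap for any of these genes, and the highest tumor library was 2 for Col14a1 and Col16a1 and 3 for Col12a1. The locus that joins Arfgap1 and Col20a1 stood at 22.4 and 21.7 FPKM against 29.0, 24.0 and 30.7 (log2 0.47, adjusted p = 0.0609, and 0.023 by DESeq2), and its reads cannot be assigned to either gene.

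The type IX chains, which coat type II fibrils of vitreous and cartilage, were lower in every tumor library. Col9a3 (chr2:180597790-180622189) stood at 169.7 and 169.5 FPKM in the wild-type libraries and at 0.931, 14.4 and 1.30 in the tumors and fell 29.98-fold (log2 -4.91, SE 1.35, adjusted p = 0.0463). Col9a1 stood at 14.8 and 14.6 FPKM against 0.0487, 2.07 and 0.0260 (log2 -4.28, SE 1.62, adjusted p = 0.0985), with 2, 85 and 1 fragments in the tumors. Col9a2 stood at 20.4 and 17.5 FPKM against 0.304, 4.32 and 0.118 (log2 -3.53, SE 1.42, adjusted p = 0.112). Tumor library 2 was the highest of the tumors for all 3 chains. Without it all 3 passed, with log2 fold changes of -8.47 for Col9a1 (adjusted p = 0.0031) and -6.43 for Col9a2 (0.005); the Col9a3 call was lost without tumor library 1 (0.076), without tumor library 3 (0.075) and with library size alone (0.055). DESeq2 called Col9a1 (adjusted p = 0.02) and Col9a2 (0.023) as falls, as did limma on log2(FPKM + 1) (0.01 and 0.023) and on log2(FPKM + 0.1) (0.034 and 0.047). Exons of Col9a3 overlap Tcfl5 on the opposite strand over 6.07% of its exonic bases, and the strand setting of the counting is not given in the sources used here. Opticin (Optc), a vitreous protein made by the ciliary epithelium, stood at 85.7 and 88.8 FPKM in the wild-type libraries and at 0.360, 5.94 and 0.159 in the tumors, with library 2 again the highest tumor. Of 8 markers of ciliary epithelium and vitreous 3 fell, beside 15.4% of all tested loci. Their sum was 26156 and 24608 FPKM against 171, 251 and 267. Most of that sum was Ptgds (25800 and 24266 FPKM in wild type), and the other 7 markers summed to 356 and 343 FPKM against 116, 145 and 253. Cartilage markers stood at 137 and 140 FPKM against 30.2, 18.5 and 35.9, with 2 of 7 tested fallen, Chad and Sox9. The largest part of the wild-type sum was Chad, at 73.1 and 77.2 FPKM against 0.825, 0.935 and 2.02. Acan went the other way, at 0.218 and 0.294 FPKM against 4.83, 0.365 and 1.04. Hapln1 stood at 0.107 and 0.0991 FPKM against 1.03, 0.0440 and 10.2. Neither Acan nor Hapln1 passed. The part of either tissue in the type IX values was not tested.

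In the network class the chains of type VIII went in opposite directions. Col8a2 (chr4:126286793-126314330) was the most abundant collagen of wild type, at 327 and 338 FPKM, and stood at 27.9, 66.7 and 59.4 in the tumors. It fell 6.27-fold (log2 -2.65, SE 0.41, adjusted p = 0.0135), and its rank among named loci went from 302 and 257 to 3163, 1281 and 1698. Col8a1 (chr16:57624258-57754737) stood at 163 and 185 FPKM against 368, 228 and 692, with all tumors higher, and did not pass (log2 1.29, SE 0.55, adjusted p = 0.128). It passed without tumor library 2 (log2 1.54, adjusted p = 0.046) and by DESeq2 (adjusted p = 0.047). Col10a1, a chain of growth-plate cartilage, stood at 2.69 and 3.18 FPKM in the wild-type libraries and at 14.2, 72.9 and 0.410 in the tumors. Its tumor values straddled the wild-type values, with an adjusted p of 0.226, and without tumor library 3 it passed (log2 3.93, adjusted p = 0.041).

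**Figure D4:**
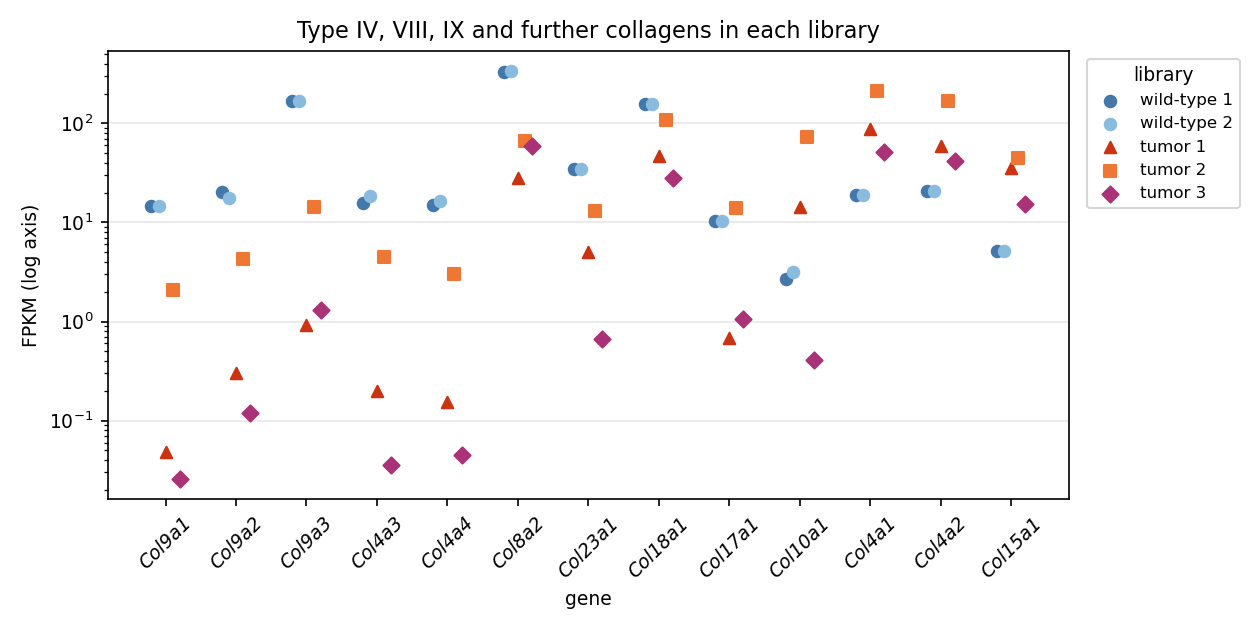
FPKM (log vertical axis) of type IV, VIII, IX and further collagens (horizontal axis), with a point for each of the 5 libraries. Tumor library 2 lies above tumor libraries 1 and 3 for the type IX chains and for Col4a3 and Col4a4, and all tumor points of Col8a2 lie below wild type.

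The type IV genes lie in head-to-head pairs, and the pairs differed from each other. Col4a1, of the pair found in nearly all basement membranes, stood at 18.9 and 19.1 FPKM in the wild-type libraries and at 88.5, 214 and 51.4 in the tumors. It rose (log2 2.69, SE 0.70, adjusted p = 0.0416), a call lost without tumor library 1 (adjusted p = 0.068). Col4a2 stood at 20.8 and 20.8 FPKM against 58.8, 170 and 42.0 and did not pass (log2 2.17, SE 0.70, adjusted p = 0.0691). It passed without tumor library 2 (log2 1.30, adjusted p = 0.025), without tumor library 3 (log2 2.50, adjusted p = 0.041) and by DESeq2 (0.0043). Both genes shared the order of the tumors, with library 2 highest, and the groups did not overlap.

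Col4a3 and Col4a4, chains of specialised basement membranes such as those of the glomerulus and the eye, were lower in every tumor library. Col4a3 stood at 15.9 and 18.7 FPKM in the wild-type libraries and at 0.200, 4.52 and 0.0356 in the tumors (log2 -3.39, SE 1.73, adjusted p = 0.183). Col4a4 stood at 15.1 and 16.5 FPKM against 0.154, 3.01 and 0.0447 (log2 -3.75, SE 1.62, adjusted p = 0.132). Neither passed over all 5 libraries, and without tumor library 2 both did, at -7.14 (adjusted p = 0.0083) and -7.17 (0.0058). Over all 5 libraries, limma on log2(FPKM + 1) called both (adjusted p = 0.03 and 0.017), and DESeq2 (0.024) and limma on log2(FPKM + 0.1) (0.043) called Col4a4 alone. Col4a5 stayed at 13.8 to 26.4 FPKM in all libraries with overlapping groups (adjusted p = 0.393), and Col4a6 at 0.926 to 7.17.

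Of the 4 transmembrane genes 0 passed by edgeR, 0 reached an unadjusted p under 0.05, and DESeq2 called Col23a1 (adjusted p = 0.041). Col23a1 stood at 34.9 and 34.8 FPKM in the wild-type libraries and at 5.06, 13.1 and 0.672 in the tumors, all lower (log2 -2.43, SE 1.08, adjusted p = 0.141). Col17a1, the hemidesmosome collagen of basal epithelial cells, stood at 10.3 and 10.3 FPKM against 0.686, 13.98 and 1.07. Tumor library 2 lay above wild type and the others far below. Over all 5 libraries the adjusted p was 0.618, and without tumor library 2 it was 0.0047 (log2 -3.54). Tumor library 2 was also the highest tumor for Krt5 (399.9 FPKM against 356 and 379 in wild type). The same held for the joined locus of Krt14 and Krt16 (247 FPKM against 89.6 and 91.4). The corneal keratin Krt12 lay below wild type in it (18.3 FPKM against 258 and 248). So did the summed cornea markers, most of whose wild-type level was Clu (3532 and 3497 FPKM). The part of corneal epithelium in the Col17a1 value was not tested. Col13a1 and Col25a1 had overlapping groups.

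The basement membrane zone collagens of the multiplexin family differed in direction. Col15a1 stood at 5.20 and 5.17 FPKM in the wild-type libraries and at 35.1, 44.98 and 15.5 in the tumors and rose (log2 2.67, SE 0.52, adjusted p = 0.0209). Col18a1, the precursor of endostatin, stood at 158 and 159 FPKM against 46.7, 109 and 28.3, lower in every tumor, and did not pass (log2 -1.47, SE 0.57, adjusted p = 0.105). It passed without tumor library 2, the highest tumor (log2 -2.20, adjusted p = 0.013), and by DESeq2 (0.03). Col28a1 (chr6:7997808-8192617), a collagen described in peripheral nerve, stood at 0.588 and 0.936 FPKM against 10.04, 21.9 and 38.6, and rose (log2 5.03, SE 0.75, adjusted p = 0.012) with 34 and 51 fragments in wild type. The 8 Schwann cell markers did not pass (0 rose, 0 fell), with summed levels of 190 and 193 FPKM against 228, 365 and 209, and the part of nerve in the Col28a1 value was not tested. The 10 members that averaged under 10 FPKM in both groups and did not pass reached at most 14.01 FPKM in any library. Their log2 fold changes were -0.66 to 1.29, with adjusted p of 0.0518 to 0.987. Among the collagens, 8 held fewer than 100 fragments in every library, including Col6a4, Col6a5 and Col24a1, which are counted among the calls.

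Chains of the same collagen type were compared as ratios of FPKM, which is per length. Whether the chains of a pair share a trimer in these tissues was not measured. Of 8 planned ratios 5 could be given, since a chain of the other 3 fell under 1 FPKM in a library. With 2 against 3 libraries the smallest p of the two-sided exact permutation test is 0.1, so no ratio could reach 0.05. The Col8a1 to Col8a2 ratio was 0.498 and 0.549 in wild type and 13.2, 3.42 and 11.7 in the tumors, a 15.4-fold difference without overlap (exact permutation p = 0.1, adjusted over 5 ratios 0.25). Col4a1 to Col4a2 was 0.906 and 0.919 against 1.51, 1.26 and 1.22 (exact permutation p = 0.1, adjusted 0.25). Col5a1 to Col5a2 was 1.02 and 0.878 against 0.470, 0.324 and 0.659, all lower (exact permutation p = 0.2, adjusted 0.25). Col1a1 to Col1a2 stayed close to 1, at 0.859 and 0.798 against 0.864, 0.961 and 1.11 (exact permutation p = 0.2, adjusted 0.25). Col6a1 to Col6a2 was 1.20 and 1.18 against 1.18, 1.40 and 1.12, with overlapping groups (exact permutation p = 0.9). A pair of ratios was added after the values were seen and carries no test: Col3a1 to Col1a1 was 0.238 and 0.263 in wild type and 0.787, 0.746 and 0.680 in the tumors, and Col5a2 to Col1a1 was 0.0462 and 0.0551 against 0.221, 0.338 and 0.186. Both lay higher in every tumor library than in either wild-type library.

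**Figure D5:**
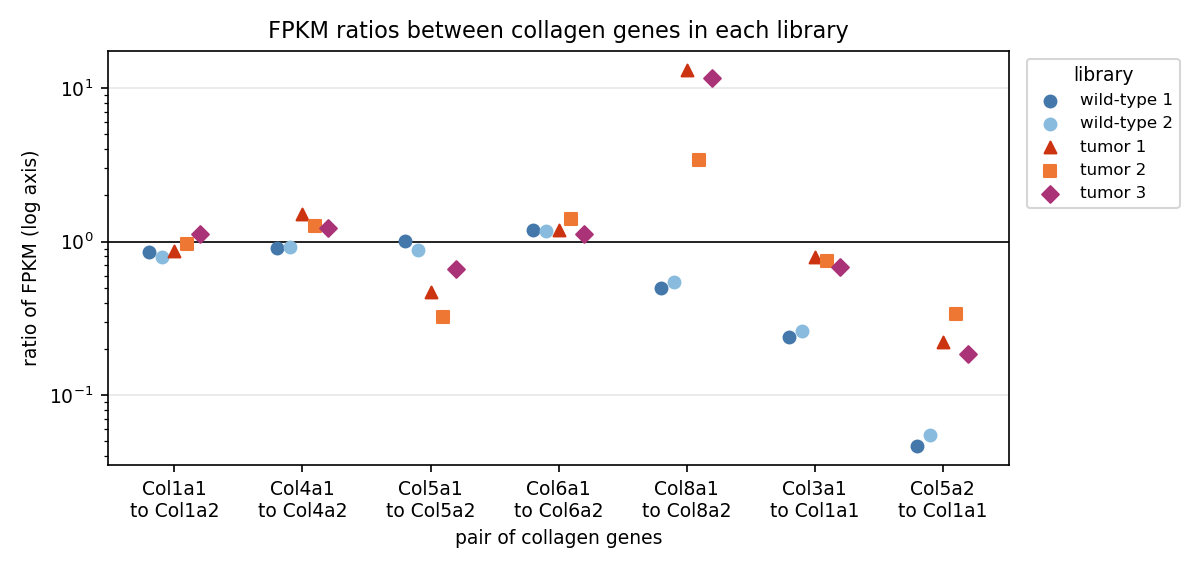
Ratios of FPKM between collagen genes (log vertical axis), with a point for each of the 5 libraries and a line at a ratio of 1. The Col8a1 to Col8a2 ratio lies at 0.498 to 0.549 in wild type and 3.42 to 13.2 in the tumors, while Col6a1 to Col6a2 overlaps.

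Genes that make and mature collagen rose more often than they fell. Of 32 genes of synthesis and processing, 18 rose and 0 fell, with a median log2 fold change of 1.09. Over all tested loci 18.7% rose and 15.4% fell, with a median of 0.05. Lox, which cross-links collagen and elastin, stood at 5.80 and 6.99 FPKM in the wild-type libraries and at 327, 212 and 369 in the tumors (log2 5.62, adjusted p = 0.004). Loxl2, a related oxidase, stood at 7.17 and 8.10 FPKM against 46.8, 50.3 and 53.8. P4ha1, a prolyl hydroxylase subunit, stood at 17.4 and 18.2 FPKM against 55.6, 51.7 and 58.4. Plod2, which hydroxylates lysine in telopeptides, stood at 3.17 and 3.37 FPKM against 26.8, 25.4 and 43.5. For all 4 the groups did not overlap. Of 9 tested collagen receptors 6 rose and 0 fell (median 1.65), among them the integrin chains Itga1 (1.49 and 1.78 FPKM against 5.57, 7.63 and 8.19) and Itgb1 (65.4 and 74.0 against 216, 214 and 206), the inhibitory leukocyte receptor Lair1 and the endocytic receptor Mrc2.

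Of 16 fibril partners 7 rose and 2 fell (median 0.87), beside 18.7% and 15.4% of all tested loci. The share that fell was thus near the background. The rises included Fn1, the fibronectin gene, at 18.2 and 19.7 FPKM in wild type and 324, 459 and 927 in the tumors, elastin (Eln) at 24.1 and 22.7 against 172, 160 and 524, and Postn and Bgn. The falls were Kera, a keratan sulfate proteoglycan of cornea, and Fbln1. Of 16 basement membrane partners 6 rose and 1 fell (median 1.04), beside the same background. Lama4 stood at 4.25 and 4.87 FPKM against 19.8, 31.0 and 23.2, Nid1 at 18.3 and 19.9 against 70.2, 76.6 and 101, and Lama2 and Hspg2 rose also, while Lamc3 fell.

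Markers of other cell types were read beside the 18.7% of all tested loci that rose and the 15.4% that fell. Of 10 fibroblast markers 2 rose (Thy1, from 14.4 and 14.7 FPKM to 265, 235 and 95.2, and Mfap5), 1 fell (Fap, from 36.4 and 40.9 to 22.4, 13.4 and 13.2) and 7 did not pass, so that the share that rose was near the background. Their summed level was 214 and 219 FPKM in wild type and 971, 535 and 851 in the tumors, with none at 0. Macrophage markers rose in 6 of 8 (summed 486 and 527 against 2891, 1485 and 7390). Most of that sum was Lyz2 (338 and 367 FPKM against 2392, 1095 and 6474). Endothelial markers (0 rose, 2 of 8 fell) stood at 181 and 181 against 156, 111 and 86.3. Those of pericytes and smooth muscle (0 rose, 2 of 8 fell) stood at 511 and 506 against 333, 346 and 475. Most of the latter sum was Acta2 (365 and 349 FPKM against 194, 252 and 423). Cornea and lens markers fell in 3 of 8 and 3 of 9, and no skeletal muscle marker passed. The part of any of these cells in the collagen values was not tested.

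Promoter windows were read for 35 of the 43 genes from RefSeq (GRCm38.p6), 250 bases before the start site. The windows of Col3a1 and Col5a3, both among the 7 fibrillar genes that rose, are printed because they overlap no annotated exon and hold different motifs. Capitals mark the letters TATAAA of the core promoter element, the letters CCAAT known to be bound by NF-Y, the letters GGGCGG known to be bound by Sp1 and the letters GGAATG known to be bound by TEAD factors. All were searched on both strands, and no match overlaps another in these windows.
Col3a1, chr1:45311288-45311537, plus strand: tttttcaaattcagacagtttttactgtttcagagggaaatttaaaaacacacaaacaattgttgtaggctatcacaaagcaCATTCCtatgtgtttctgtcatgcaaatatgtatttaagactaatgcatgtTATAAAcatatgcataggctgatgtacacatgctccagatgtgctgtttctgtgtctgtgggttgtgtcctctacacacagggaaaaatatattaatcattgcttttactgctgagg
Col5a3, chr9:20815068-20815317, minus strand: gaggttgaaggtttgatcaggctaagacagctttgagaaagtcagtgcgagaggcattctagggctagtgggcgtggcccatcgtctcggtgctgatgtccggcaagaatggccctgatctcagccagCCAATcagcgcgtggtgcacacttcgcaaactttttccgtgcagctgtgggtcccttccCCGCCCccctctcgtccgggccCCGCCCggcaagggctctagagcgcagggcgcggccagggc
The Col3a1 window holds TATAAA 117 bases and the complement of GGAATG 168 bases before the start, and the Col5a3 window holds CCAAT 122 bases before the start and 2 matches to GGGCGG. Over 38 collagen windows, TATAAA was in 5 (13.2%, against 12.4% of all 32851 windows), CCAAT in 13 (34.2%, against 33.8%), GGAATG in 4 (10.5%, against 12.6%) and GGGCGG in 22 (57.9%, against 32.7%). These are matches of letters, not sites of binding. Among members without an entry were Col1a1, Col5a2, Col9a3, Col12a1 and Col14a1.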

How the data were processed

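RNA was sequenced from 2 wild-type uveal libraries and 3 tumor libraries. Tissue was frozen on dry ice, RNA taken with Trizol and libraries made with a TruSeq kit, per the labels' protocols. TopHat2 2.0.9, Cufflinks 2.2.1, Cuffdiff and build mm10 are named in the submitters' processing notes, without their roles. The table deposited by the authors gives, per the file headers, estimated counts of fragments per locus and library that are not scaled, and FPKM, scaled by the authors for length and depth. Its gene annotation, read filters and strandedness: not given in the sources used here.

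Table replicate numbers start at 0 and name libraries only, so libraries are numbered in table order. Unnamed loci (1627) held 1.52% to 4.37% of fragments and stayed out of library sizes and tests. Expected counts were rounded. edgeR 4.0.16 (R 4.3.3) used TMM, filterByExpr with a minimum count of 10 and the quasi-likelihood F-test over all 5 libraries without covariate, with Benjamini-Hochberg adjustment over 15241 loci. Adjusted p-values are from edgeR unless another tool is named, and "rose" and "fell" mean an adjusted p under 0.05. DESeq2 1.42.0 and limma 3.58.1 on log2(FPKM + 1) and log2(FPKM + 0.1) were alternatives. The fit recovered the median fold changes of simulated counts. With each locus at its own fitted dispersion it called none of the changed loci. Calls came in a simulation added afterwards with capped dispersion, larger folds and better covered loci, so no power is claimed.

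Values in all libraries are given for members that average 10 FPKM or more in either group or pass the threshold. From each other list, up to 4 members a direction with the smallest p at 5 FPKM or more could be named. Not all of these are named, and some are named without values. Col2a1, Col27a1, Col11a2, Col6a6, Col4a6, Krt5, Krt12, Krt14, Clu, Acan, Hapln1, Lyz2, Acta2 and the sums over markers were named after their values were seen. The members and lists were chosen with earlier results of these data known. Depth is 12687703 to 14368272 fragments a library, and counting error alone is small in a library where a member lies above 10 FPKM. It is larger where few fragments were counted. In tumor libraries 1 and 3 Col9a1 held 2 and 1 fragments, Col9a2 11 and 4, Col4a3 24 and 4 and Col4a4 22 and 6. Their fold changes without tumor library 2 rest on those counts.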

Additional observations from a re-analysis of the deposited data

How the results depend on the processing

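Collagens that rose numbered 16, and 15 to 21 under the other scalings, filter and tools, and those that fell 4, then 2 with library size only, 9 by DESeq2, 8 by limma on log2(FPKM + 1) and 7 on log2(FPKM + 0.1). With each library left out in turn, collagens that rose ranged from 0 to 20 and those that fell from 0 to 9, and over all tested loci (2852 rose, 2349 fell) the rises ranged from 0 to 3032 and the falls from 0 to 3112; each 0 came with a single wild-type library, whose spread is then assumed equal to that of the tumors. The log2 difference of the Col6a1 to Col6a2 ratio, 0.05, ranged from -0.0435 to 0.117 with a library left out and was reversed without tumor library 2. By share of fragments in place of FPKM, an alternative chosen after seeing the data, network chains made up 9.93% of tumor collagen in place of 11.4%. The 33 members that average 10 FPKM or more in either group or pass the threshold all kept their call with RLE scaling. No paired analysis was possible because the table's replicate numbers are not tied to those of the labels. The ratio per effective length was not run, since that column holds no value. With 1 wild-type library no call held, although all 20 called collagens kept their direction in either case, and all but Col6a4 had log2 fold changes within 0.5 of those over 5 libraries.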
